A study of Homo sapiens with 5 samples.

Results

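The gene set described here comprises 8 genes of cholesterol synthesis and its feedback control, INSIG1, HMGCS1, IDI1, FDPS, FDFT1, SQLE, LSS and DHCR7, out of 19716 genes with a read in any library. They were chosen by gene symbol, and each symbol matched a single row that held reads in all 5 libraries. Cells make cholesterol from acetyl-CoA through the mevalonate pathway, which also yields farnesyl diphosphate for other products. Its genes are switched on together by the transcription factors SREBP1 and SREBP2, which the escort protein SCAP carries from the endoplasmic reticulum to the Golgi for cleavage when sterols are low. INSIG1, the feedback member of the set, holds SCAP back when sterols are high, and its own gene is an SREBP target.

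RNA sequencing was performed on HEK293T cells, an established human embryonic kidney line, collected 48 h after transfection with X-tremeGENE 9 and 1 ug of plasmid. For 4 libraries, 5 sgRNAs aimed at the uPA promoter (the urokinase gene, PLAU) were delivered together with a fusion of nuclease-dead Cas9, blue fluorescent protein (BFP) and a partner, driven by a PGK promoter. The partner was the catalytic domain of DNMT1, the maintenance DNA methyltransferase, that of the de novo methyltransferase DNMT3A or DNMT3B, or EGFP, a fluorescent protein without such activity. The fifth library, the control, was made from cells that received pUC19, an empty cloning plasmid that encodes neither dCas9, BFP nor sgRNA. Per the labels, RNA came from BFP-positive sorted cells, but pUC19 encodes no BFP, so how the control cells were gated is unclear. No group with a fusion lacked the sgRNAs, so dCas9, sgRNAs, BFP and sorting cannot be told apart in any comparison with pUC19.

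Each group had 1 library, so no difference given here has a replicate check, and a test of the reads of 2 libraries compares those libraries, not the conditions. Library totals lay between about 26200000 and 36100000 reads, with pUC19 the deepest. PLAU, the target of the sgRNAs, had 106 reads in pUC19 and 1 to 6 in the fusion libraries. VIM, KRT8, KRT18, NEFM and PAX2, which mark HEK293T cells, were present in all libraries, and NEFM was the only one of these 5 called lower in every fusion library, with 34.3 to 60.2 TPM against 193 in pUC19. Of 5 markers of other cell types 4 had a row, and their summed level was 9.70 to 11.7 TPM in the fusion libraries and 11.7 in pUC19. PTPRC, a blood cell marker, had 5 to 19 reads, and ALB, made by hepatocytes, 0 to 13. The fibroblast collagen gene COL1A1 stood at 7.93 TPM with DNMT1, 3.87 with DNMT3A (called lower), 5.69 with DNMT3B, 6.17 with EGFP and 7.97 in pUC19, and the macrophage marker CD68 at 3.24, 5.66, 5.93, 4.40 and 3.18 TPM, above pUC19 in all fusion libraries but not called. CDH5, an endothelial marker, had no row. The part of these markers in the results on the members was not tested.

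Letters before RefSeq transcript starts of the members are shown first, because SREBP is known to act together with NF-Y, a factor that binds the motif CCAAT. RefSeq promoter sequences, from 250 bases before to 50 after a transcript start in GRCh38.p14, were given for 6 of the 8 members. SQLE and FDFT1 had no entry. Stretches of at most 30 bases around each CCAAT, on either strand, are printed 5′ to 3′ along the gene, from the start with the most matches, with CCAAT or its reverse complement in capitals. Coordinates are those of the exact and only match in GRCh37. Distances are to that RefSeq start, which can lie inside the gene positions given below. The IDI1 and DHCR7 stretches lie inside those positions, as do some of FDPS and HMGCS1 in whole or in part.
INSIG1, chr7:155089406-155089434, plus strand, motif 170 bases before the start: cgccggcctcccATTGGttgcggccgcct
HMGCS1, chr5:43313653-43313681, minus strand, 155 before: agtttccttttgATTGGtagaagccggac
HMGCS1, chr5:43313598-43313626, minus strand, 100 before: ctaccggccgcgATTGGctgtgggagcca
IDI1, chr10:1094940-1094969, minus strand, 132 before, both strands in 1 stretch: gcgtacgggcgCCAATTGGccgggcgatgt
IDI1, chr10:1094897-1094925, minus strand, 87 before: ctggcgcgagcgATTGGctgcgcggcccg
FDPS, chr1:155278469-155278497, plus strand, 176 before: ttcagcccttccATTGGtcgtccgtcaca
FDPS, chr1:155278523-155278551, plus strand, 122 before: gacggccagcagCCAATcagcgcggctca
FDPS, chr1:155278594-155278622, plus strand, 51 before: tcccgcgggcacATTGGgagttgtagtct
LSS, chr21:47648822-47648850, minus strand, 150 before: cgcggcgctctgATTGGttgcgtgggcgt
DHCR7, chr11:71159517-71159545, minus strand, 94 before: caggctcctcgaCCAATcacggggcgcgg
DHCR7, chr11:71159471-71159499, minus strand, 48 before: ggtccgcctccgATTGGcaggcaatcgct

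CCAAT was found in at least 1 promoter of all 6 members and in 7 of their 10 promoters, against 34.6% of the 35116 promoters in the table and 39.7% of 27305 genes. TCACNCCAC, a 9-letter form of the sterol regulatory element, was in none of the 10 and in 1.13% of all promoters. Its 8-letter core CACNCCAC, contained in the longer form, was in promoters of INSIG1 and IDI1 and in 5.87% of all promoters. CACGTG, the E-box that SREBP can also bind, was in promoters of INSIG1 and LSS and in 7.26% of all. These matches describe letters in short windows and say nothing about binding.

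The question that the comparison with pUC19 addresses is how far the transcriptome differed from the control beyond the targeted gene. All 8 members were lower than in pUC19 in all 4 fusion libraries. The lower levels were steepest for IDI1, SQLE, INSIG1 and HMGCS1, where pUC19 was 1.77 to 4.04 times the fusion library, and smallest for DHCR7, where it was 1.08 to 1.30 times. Levels are given in TPM, reads per gene divided by gene length and scaled to 1000000 per library, so that genes can be compared with each other. Fewer cells that express a gene and less RNA per cell cannot be told apart in these bulk libraries.

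INSIG1 (NCBI gene 3638, chromosome 7, 155089486 to 155101945, plus strand, GRCh37) stood at 97.2 TPM with the DNMT1 fusion, 96.0 with DNMT3A, 84.3 with DNMT3B, 146 with EGFP and 261 in pUC19. The 3 methyltransferase fusions lay close together, and the EGFP fusion lay between them and pUC19. Its log2 fold changes against pUC19 (ratios of TPM + 0.1) were -1.42, -1.44, -1.63 and -0.83 in the same order. INSIG1 was the member whose level varied most among the fusions, by 1.74 times.

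Among the enzymes, HMGCS1 condenses acetyl-CoA units to HMG-CoA early in the mevalonate pathway. HMGCS1 (gene 3157, chromosome 5, 43287572 to 43313614, minus strand) stood at 28.8 TPM with DNMT1, 26.7 with DNMT3A, 28.0 with DNMT3B, 35.3 with EGFP and 62.4 in pUC19. Its log2 fold changes were -1.12, -1.22, -1.15 and -0.82. As for INSIG1, the library with the EGFP fusion was the nearest to pUC19. The deposited coverage of the transcript was 57.6% to 63.3% in the fusion libraries and 80.7% in pUC19. Exons of an antisense lncRNA (ENSG00000261604) overlap 37.7% of the exon bases of HMGCS1, and since strand was not stated for the counting, reads of the pair cannot be told apart.

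IDI1 interconverts isopentenyl and dimethylallyl diphosphate, the building blocks of all isoprenoids. IDI1 (gene 3422, chromosome 10, 1085092 to 1095059, minus strand) stood at 40.5 TPM with DNMT1, 32.0 with DNMT3A, 33.1 with DNMT3B, 46.2 with EGFP and 129 in pUC19. Its log2 fold changes of -1.67, -2.01, -1.96 and -1.48 included the steepest of the set. Among 9238 genes with a mean of at least 10 TPM, between 0.119% and 0.487% had a log2 fold change at or below that of IDI1 in the same library. Antisense transcript IDI2-AS1 overlaps 15.0% of its exon bases.

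FDPS joins these units to farnesyl diphosphate, the branch point to sterols, dolichol, ubiquinone and prenylated proteins. FDPS (gene 2224, chromosome 1, 155278539 to 155290457, plus strand) stood at 164 TPM with DNMT1, 149.8 with DNMT3A, 145 with DNMT3B, 171 with EGFP and 224 in pUC19. FDFT1, squalene synthase, is the first enzyme committed to sterols. FDFT1 (gene 2222, chromosome 8, 11653082 to 11696904, plus strand) stood at 158 TPM with DNMT1, 130.4 with DNMT3A, 137 with DNMT3B, 151 with EGFP and 202 in pUC19. Both were the most abundant enzymes of the set in pUC19 and both differed less from it than the members above. The log2 fold changes were -0.45, -0.58, -0.63 and -0.39 for FDPS. For FDFT1 they were -0.36, -0.63, -0.56 and -0.42. FDPS overlaps the antisense RUSC1-AS1 over 18.6% of its exon bases. Reads that FDPS shares with its copy FDPSP2, or IDI1 with IDI2, would not count as unique, so these levels are uncertain to that extent.

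SQLE, squalene epoxidase, catalyses a rate-limiting oxygenation downstream of FDFT1. SQLE (gene 6713, chromosome 8, 126010739 to 126034525, plus strand) stood at 50.6 TPM with DNMT1, 38.0 with DNMT3A, 40.3 with DNMT3B, 43.3 with EGFP and 122 in pUC19. The 4 fusion libraries lay within 1.33 times of each other, and pUC19 was 2.41 times the highest of them. The log2 fold changes were -1.26, -1.68, -1.59 and -1.49, so that here, unlike INSIG1 and HMGCS1, the DNMT1 fusion was the nearest to pUC19.

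LSS cyclises the product of SQLE to lanosterol, the first sterol. LSS (gene 4047, chromosome 21, 47608055 to 47648738, minus strand) stood at 38.0 TPM with DNMT1, 25.3 with DNMT3A, 28.7 with DNMT3B, 38.0 with EGFP and 45.4 in pUC19. The DNMT1 and EGFP fusions could not be told apart (adjusted p = 0.433, exact test, log2 difference -0.0034, 95% interval -0.09 to 0.09), and both DNMT3A and DNMT3B lay below them. The log2 fold changes against pUC19 were -0.26, -0.84, -0.66 and -0.25.

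DHCR7 reduces 7-dehydrocholesterol to cholesterol in the final step. DHCR7 (gene 1717, chromosome 11, 71139239 to 71163914, minus strand) stood at 149 TPM with DNMT1, 124 with DNMT3A, 128 with DNMT3B, 146 with EGFP and 161 in pUC19. It was the member nearest to the control, with log2 fold changes of -0.11, -0.38, -0.33 and -0.14. The value for DNMT1 was closer to 0 than the median of all genes in that comparison, -0.15, and turned to 0.0146 when the libraries were scaled by the trimmed mean of M-values (TMM).

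**Figure D1:**
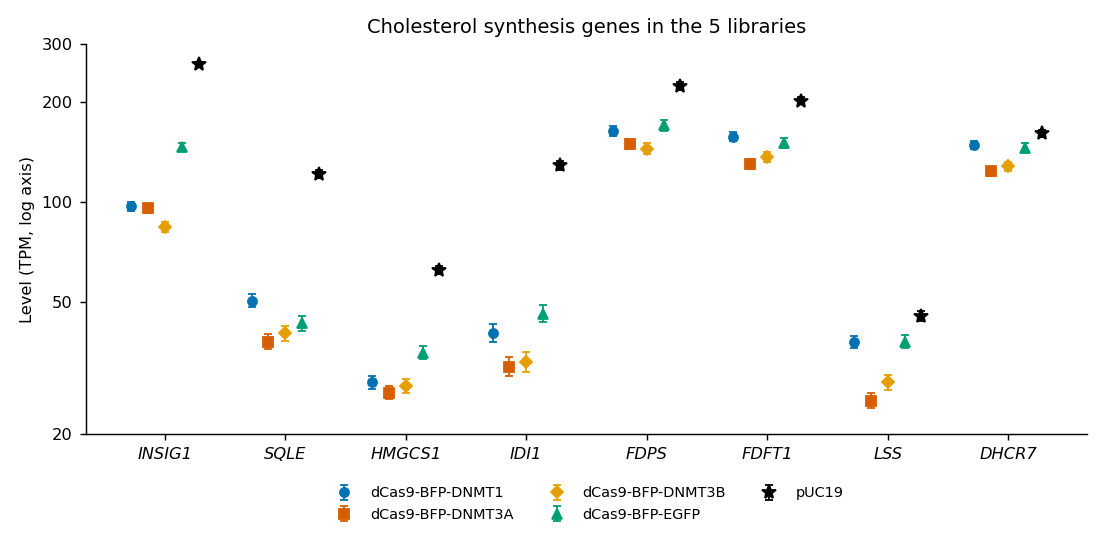
Level in TPM (log axis) of each of the 8 genes in the 5 libraries, 1 point per library, with 95% exact intervals for the sampling of reads. The pUC19 points (stars) lie above all 4 fusion points for every gene, from 1.08 times the highest fusion for DHCR7 to 2.80 times for IDI1.

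Calls required a fold of at least 2 together with an adjusted p of at most 0.001 in a two-sided exact conditional binomial test of the 2 read counts (Benjamini-Hochberg over all genes with a read). With the DNMT1 fusion 4 of the 8 members were called lower (INSIG1, SQLE, HMGCS1, IDI1), where 3.63% of all genes tested were called lower. The same 4 were called lower with DNMT3A, where 4.96% of all genes were, and with DNMT3B, where 4.29% were. With the EGFP fusion 2 were called, SQLE and IDI1, against 3.1% of all genes, while INSIG1 and HMGCS1 stayed short of the fold. The 4 comparisons share the pUC19 library.

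On the adjusted p alone, all 8 members were lower in each comparison, with the largest value, 9.45e-04, for DHCR7 with the DNMT1 fusion. At these depths this holds for 27% of all genes in the DNMT1 library, 25.4% in that of DNMT3A, 27% in that of DNMT3B and 22.7% in that of EGFP. The median log2 fold change of the members was -0.78, -1.03, -0.90 and -0.62 in the order DNMT1, DNMT3A, DNMT3B and EGFP, against medians over all genes of -0.15, -0.06, -0.05 and -0.0032. Together the members held 726, 622, 625 and 777 TPM in the fusion libraries and 1207 in pUC19, so that the summed level was 60.2%, 51.6%, 51.8% and 64.4% of the control. With DNMT1, 70.4% of all calls were lower, but 53.8% under TMM scaling, which moved the median of all genes to -0.03.

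**Figure D2:**
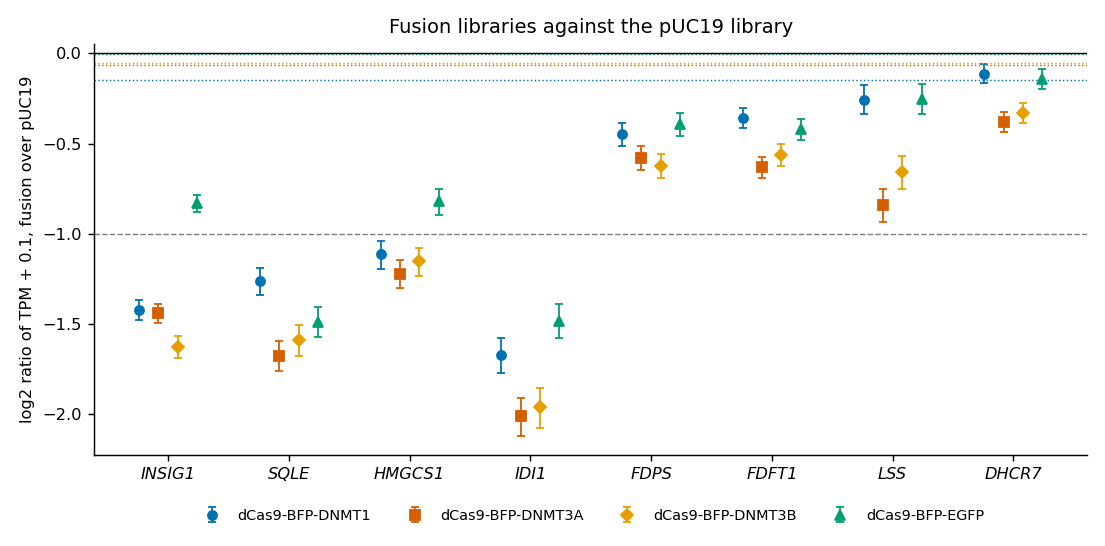
log2 ratio of TPM + 0.1, fusion library over pUC19, for the 8 genes, with 95% exact intervals for the sampling of reads; the dashed line marks the 2-fold limit and dotted lines the median of all genes in each comparison. IDI1 and SQLE lie below the dashed line in all 4 comparisons, and FDPS, FDFT1, LSS and DHCR7 above it in all 4.

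The difference from pUC19 was then set against the spread over the 4 fusions, with the edgeR quasi-likelihood fit to all 5 libraries (adjusted p under 0.05 over 16001 genes). That spread is one between constructs rather than between repeats, and pUC19 has 1 library. IDI1, with a log2 fold change of -1.72 (SE 0.229, adjusted p = 0.0255), and SQLE, with -1.44 (SE 0.216, adjusted p = 0.0303), were past the threshold, where 0.644% of all genes were lower. The other 6 members missed it. HMGCS1 had -1.02 (adjusted p = 0.0558) and INSIG1 -1.25 (adjusted p = 0.0631), followed by FDPS with -0.45, FDFT1 with -0.43, LSS with -0.42 and DHCR7 with -0.18, whose adjusted p lay between 0.253 and 0.668. Without the EGFP fusion INSIG1 passed (-1.42, adjusted p = 0.0379) and SQLE did not (-1.43, adjusted p = 0.0564).

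The libraries with a fusion all carried the same sgRNAs, so comparisons among them leave out the presence of sgRNAs, dCas9 and BFP, but not their amount. Reads of the partner gene, endogenous ones included, made up 3.53% of the DNMT1 library, 3.19% of that of DNMT3A and 5.98% of that of DNMT3B. The part of the amount of fusion in these differences was not tested. No member was called in any of the 6 pairs, against 0.215% of all genes called in either direction between DNMT3A and DNMT3B and 1.44% between DNMT1 and EGFP. The other pairs had more calls, with DNMT1 differing from DNMT3A in 3.59% of all genes and from DNMT3B in 3.54%, and EGFP from DNMT3A in 3.97% and from DNMT3B in 3.5%. All 8 members were nonetheless lower with DNMT3A than with EGFP, by a log2 difference of -0.61 (INSIG1) to -0.19 (SQLE). With DNMT3B they were lower by -0.80 (INSIG1) to -0.10 (SQLE). In each of these pairs 7 of 8 had an adjusted p of at most 0.001 in the exact test, as did 37.3% and 35.1% of all genes, and SQLE was the exception in both, with adjusted p of 0.00234 and 0.0105.

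The DNMT1 fusion did not lie to one side of EGFP. Between them 3 of 8 members had an adjusted p of at most 0.001, as did 27.1% of all genes. The DNMT1 fusion was below EGFP for INSIG1 by -0.59 (95% interval -0.65 to -0.53) and for HMGCS1 by -0.29 (-0.38 to -0.21), and above it for SQLE by 0.23 (0.13 to 0.33). IDI1 was below EGFP by -0.19 (-0.31 to -0.07). For FDPS, FDFT1, LSS and DHCR7 the difference was at most 0.06 in size and its interval held 0. The exact test, which uses library totals, nonetheless gave an adjusted p of 0.00118 for FDFT1 and 0.0139 for DHCR7. All 8 members were higher with DNMT1 than with DNMT3A or DNMT3B, by 0.02 to 0.58 and by 0.04 to 0.40. The adjusted p was at most 0.001 for 6 of them against DNMT3A and 7 against DNMT3B, as for 36.9% and 35.6% of all genes. Against each other, DNMT3A and DNMT3B differed past the p threshold only in INSIG1 (14.3% of all genes did), which was higher with DNMT3A by 0.19 (0.12 to 0.26, adjusted p = 1.04e-10, exact test). The TPM scale and the totals used in the test differ by up to 0.11 log2 in these pairs, so small differences between fusions rest partly on the scale.

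**Figure D3:**
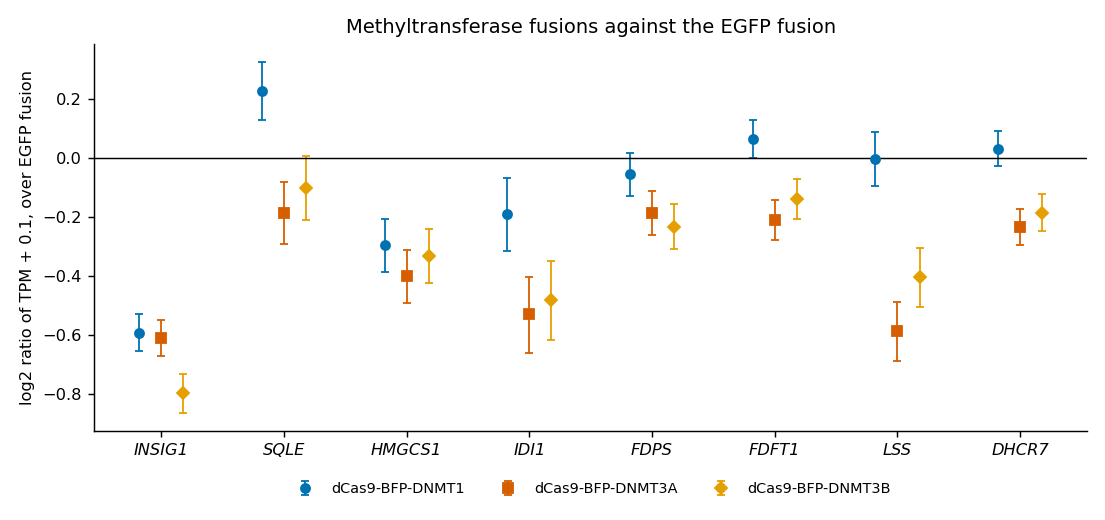
log2 ratio of TPM + 0.1 of each methyltransferase fusion over the EGFP fusion for the 8 genes, with 95% exact intervals for the sampling of reads. The DNMT3A and DNMT3B points lie below 0 for all 8 genes, whereas the DNMT1 points run from -0.59 for INSIG1 to 0.23 for SQLE.

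With DNMT3A and DNMT3B pooled against DNMT1 and EGFP (edgeR quasi-likelihood fit, 15332 genes), LSS was the only member past the threshold. Its log2 fold change was -0.55 (SE 0.137, adjusted p = 0.0351). Over all genes, 1694 passed in either direction, and 4.15% were lower. IDI1 followed with -0.47 (adjusted p = 0.0549) and INSIG1 with -0.48 (adjusted p = 0.0888). All 8 values were below 0, and the remaining 5 lay between -0.32 and -0.24 with adjusted p from 0.155 to 0.223. Leaving out DNMT3A or DNMT3B put a single library in that arm, and the calls over all genes went from 1694 to 18 and 53. LSS then had -0.46 (adjusted p = 0.407) without DNMT3A and -0.63 (adjusted p = 0.225) without DNMT3B, so its fold stayed close to that of the full fit while the call was lost. Leaving out DNMT1 or EGFP put a single library in the other arm. The median log2 fold change of the members was then -0.27 and -0.36, against -0.30 in the full fit.

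The other genes of the pathway were taken as a list of 14 enzymes beside the members. Of these, MSMO1, which removes methyl groups from sterols, was the only one called, lower with DNMT3A, DNMT3B and EGFP, and it is named here after its values were seen. It stood at 26.4 TPM with DNMT1, 18.7 with DNMT3A, 19.1 with DNMT3B, 17.4 with EGFP and 51.7 in pUC19, and its log2 fold change with DNMT1 was -0.97. The median of the list was -0.32, -0.36, -0.33 and -0.28 in the order DNMT1, DNMT3A, DNMT3B and EGFP, which is nearer to 0 than the median of the members in each comparison. Not every gene of the list was lower: PMVK, also named after its values were seen, stood above pUC19 in every fusion library without being called. In the edgeR fit of all 5 libraries 0 of 14 passed the threshold, with 3 at an unadjusted p under 0.05. DESeq2 passed 2 of them, and 977 of 19716 genes. In the edgeR fit of DNMT3A and DNMT3B against DNMT1 and EGFP, 2 of the 14 were lower, where 4.15% of all genes were. These were CYP51A1, the lanosterol demethylase, with -0.65 (adjusted p = 0.0193), and LBR, a sterol reductase of the nuclear envelope, with -0.45 (adjusted p = 0.0459).

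Of 9 genes of the SREBP machinery, 1 was called, and in a single library. SREBF1, which encodes SREBP1, was named after its values were seen: it stood at 34.8 TPM with DNMT1, 32.1 with DNMT3A, 32.0 with DNMT3B, 39.0 with EGFP and 17.7 in pUC19. Its log2 fold changes were 0.98, 0.86, 0.85 and 1.14, of which that with EGFP was called higher. All 4 fusion libraries were thus above pUC19 in SREBF1, opposite to the 8 members. SREBF2, which encodes SREBP2, stood at 109.9 TPM with DNMT1, 84.8 with DNMT3A, 83.0 with DNMT3B, 114 with EGFP and 92.3 in pUC19. It was called in no comparison with pUC19, and was lower in DNMT3A and DNMT3B than in DNMT1 and EGFP by -0.47 (edgeR, adjusted p = 0.0334).

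Of 7 genes of sterol efflux, esterification and LXR, the sterol-sensing nuclear receptor, 6 had a row, and 3 were called higher with DNMT1, where 1.53% of all genes were called higher, and with EGFP, where 2.6% were. These were ABCA1 and ABCG1, which export sterols, and CYP27A1, which makes oxysterols, all named after their values were seen. ABCA1 stood at 1.69 TPM with DNMT1, 0.993 with DNMT3A, 1.07 with DNMT3B, 1.47 with EGFP and 0.537 in pUC19. ABCG1 stood at 10.4, 8.47, 7.94, 10.1 and 4.91 TPM in the same order. The third gene, CYP27A1, stood at 2.06, 1.51, 1.45, 2.15 and 0.735. In all 3, every fusion library was above pUC19, and DNMT3A and DNMT3B lay below DNMT1 and EGFP, although the latter difference passed in none of them (adjusted p of 0.0847, 0.196 and 0.255 in the edgeR fit). In the edgeR fit of all 5 libraries 0 of 6 passed (adjusted p = 0.144 for ABCG1, 0.153 for ABCA1 and higher for CYP27A1), with 3 at an unadjusted p under 0.05. DESeq2 passed 2 of them, and 977 of 19716 genes. The median log2 fold change of the list was 0.62 to 0.74.

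Among 9 genes of fatty acid synthesis, targets of SREBP1, 2 were called lower with DNMT3A and DNMT3B and 0 with the other fusions. ACLY, which supplies cytosolic acetyl-CoA, stood at 335 TPM with DNMT1, 214 with DNMT3A, 229 with DNMT3B, 376 with EGFP and 516 in pUC19. SCD, the stearoyl-CoA desaturase, stood at 516, 291, 297, 434 and 629 TPM. In the edgeR fit of DNMT3A and DNMT3B against DNMT1 and EGFP, ACLY (-0.73, adjusted p = 0.00797), SCD (-0.76, adjusted p = 0.0162) and ACACA, acetyl-CoA carboxylase (-0.55, adjusted p = 0.0299), were lower. Of all genes, 4.15% were lower in that fit. Of 8 genes of sterol uptake and trafficking, STARD4, a sterol carrier, was the only one called, lower with DNMT3A and DNMT3B. It stood at 10.6 TPM with DNMT1, 6.24 with DNMT3A, 6.63 with DNMT3B, 13.4 with EGFP and 13.6 in pUC19, and it was lower in that edgeR fit as well (-0.95, adjusted p = 0.0183). Of 11 other users of mevalonate products, FNTA was called lower with EGFP (3.1% of all genes were) and FNTB higher with DNMT3B (4.47% were). These are the subunits of farnesyltransferase, both named after their values were seen. FNTA was lower in all 4 fusion libraries, by -0.98, -0.89, -0.95 and -1.26 in the order DNMT1, DNMT3A, DNMT3B and EGFP. FNTB was above pUC19 in all 4, on 65 to 116 reads per library.

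**Figure D4:**
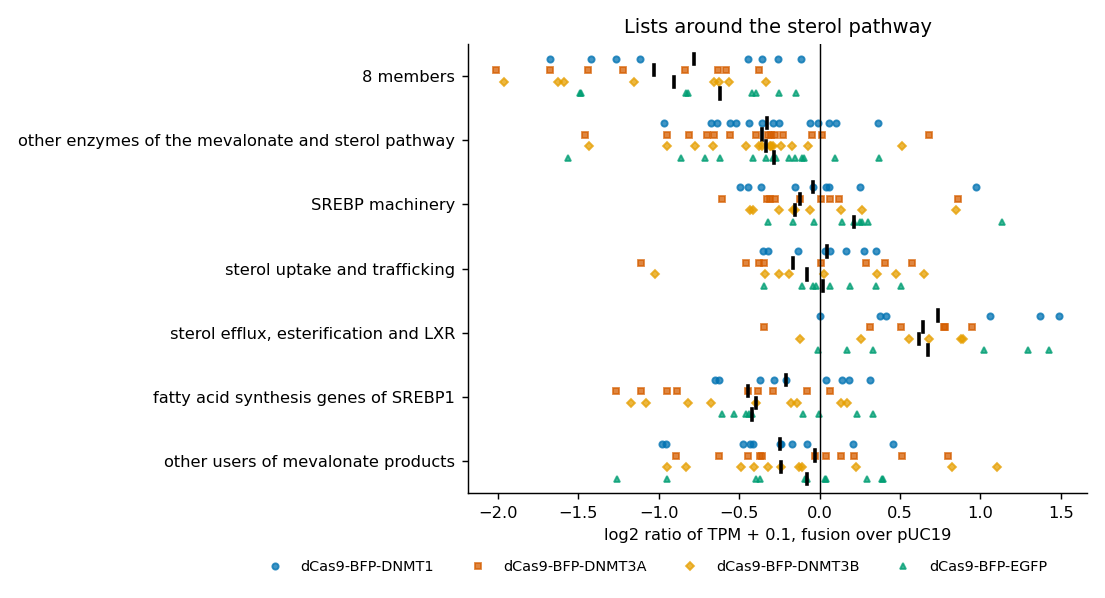
log2 ratio of TPM + 0.1, fusion library over pUC19, for the genes of 7 lists, 1 point per gene and fusion, with black bars at the median of each list and fusion. All points of the 8 members lie below 0, while the median of the efflux list lies between 0.62 and 0.74.

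The genes whose levels followed the members most closely across the 5 libraries were CBX3, MPP1, ATXN7L3B, GPI and HNRNPM. The measure was Pearson's r of log2(TPM + 0.1) with the mean of the 8 centred members, over 8323 genes of at least 10 TPM in every library, and r was at least 0.999 for each of the 5 genes. With 5 libraries, 1 of which stands apart, r is easily high: 347 genes had r of at least 0.95. Of the 5, ATXN7L3B covered the widest range, from 10.5 TPM with DNMT3A to 81.8 in pUC19, and HNRNPM the narrowest, from 212 to 257.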

How the data were processed

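Poly(A) RNA was fragmented, the cDNA went through 12 PCR cycles, and sequencing used an Ion Proton instrument. The authors aligned reads with tmap (version not given in the sources used here) to RefSeq RNA of hg19, allowing 3 mismatches, and kept unique reads. The deposited read count per gene is a whole number without normalization. The deposited TPM was recomputed from counts and gene lengths. The deposited coverage in percent was read as the covered part of the transcript, a definition the authors did not give. Genes without a row were set to 0, and the 36 rows without a gene symbol held at most 0.0058% of reads.

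The 8 genes and all lists were chosen with earlier results of these data known. Pairs of libraries were compared with an exact conditional binomial test (scipy 1.17.1), and fold changes used a pseudocount of 0.1 TPM, which understates changes of low genes. Groups of libraries were compared with edgeR 4.0.16 in R 4.3.3 (TMM, filterByExpr, quasi-likelihood F-test). Intervals are 95% exact and cover counting error only. All members were named, and from each list at most 4 genes called in all fusions or past either edgeR fit, plus the 5 genes most like the members. Genes outside this rule are marked in the text as named after their values were seen. Gene positions are from GENCODE v44 on GRCh37 and promoter sequences from RefSeq GRCh38.p14. Alternatives included other scalings, filters and thresholds, an assumed coefficient of variation of 0.2, thinning, DESeq2 1.42.0, leaving out each fusion, and a loess trend on GC content and length (89.3% of genes and all members had a GC value). Scripts were tested on simulated data.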

Additional observations from a re-analysis of the deposited data

Results flagged for a closer look

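In a test of the difference between constructs itself, 1694 of 15332 genes passed, 636 of them lower. LSS was the only one of the 8 members among them. With the DNMT3A and DNMT3B fusions its log2 fold change against the DNMT1 and EGFP fusions was -0.55 (edgeR quasi-likelihood fit, adjusted p = 0.0351), lower in 2 of 2 libraries than in either of the others (25.3 and 28.7 TPM against 38.0 and 38.0). The constructs are not replicates of each other. Without a filter on low counts it was -0.54 (adjusted p = 0.0584). Without the DNMT3A library it was -0.46 (adjusted p = 0.407) and without DNMT3B -0.63 (adjusted p = 0.225), fits with 1 library in that arm and 18 and 53 calls over all genes in place of 1694, which say little about LSS alone. The call was kept with median-ratio size factors, with DESeq2 and with the GC and length offset. Fits without the DNMT1 or the EGFP library left 1 library in the other arm, so a call kept there says equally little about LSS alone.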

How the results depend on the processing

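No paired analysis was possible because each group had 1 library and the labels carry no replicate numbers. With an assumed coefficient of variation of 0.2 between libraries (edgeR exact test), members called lower against pUC19 fell from 4 to 0 with DNMT1, from 4 to 1 with DNMT3A, from 4 to 1 with DNMT3B and from 2 to 0 with EGFP. At that setting 0.0789%, 0.38%, 0.29% and 0.141% of all genes were called lower, in the same order. At an adjusted p of at most 0.05 without a fold limit, 8 were called in each, where 29.1% (EGFP) to 34.5% (DNMT1) of all genes were called lower. At a fold of 1.5, 4 were called with EGFP, against 8.65% of all genes. In the fit of the 4 fusions against pUC19, 2 members passed, where 103 of 16001 genes were lower. With DESeq2 4 passed (460 of 19716 genes lower), as did 4 without a filter on low counts (187 of 19716). Leaving out each fusion kept the median log2 fold change of the members between -0.80 and -0.70, against -0.74 in the full fit. A GC and length offset, added after the data were seen, also gave 2, where 88 of 14447 genes were lower. In the fit of DNMT3A with DNMT3B against the other fusions, 1 passed, 2 with DESeq2, 3 with the GC and length offset and 0 without the filter; leaving out each library gave 0 to 5. The summed level with DNMT1 moved from 60.2% to 65.7% of pUC19 with TMM scaling. DHCR7 with DNMT1 turned from -0.11 to 0.0146 with TMM scaling, to 0.0299 with median-ratio scaling and to 0.0197 in the edgeR exact test. No member was called between fusions under any alternative run for those pairs. HMGCS1 fell short of 2-fold with DNMT1 under TMM scaling (-0.99), median-ratio scaling (-0.97) and the GC and length trend (-0.82). Under the last it also fell short with DNMT3A (-0.95) and DNMT3B (-0.93). LSS with DNMT3A passed 2-fold there (-1.06), so that 4 members were still called with DNMT3A, where 4.62% of all genes were called lower. The causes of these shifts were not tested. Depth did not limit the members: the fewest reads of any member were 801, and thinning to the smallest library left every member call against pUC19 as it was. Each group has a single library.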
